A study of Homo sapiens with 10 samples.

Results

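The enzymes that make serine and pass its carbon to folate were examined in HepG2 cells, a human hepatoma line, under tunicamycin, an inhibitor of N-linked glycosylation that causes endoplasmic reticulum (ER) stress. The 10 genes were taken by symbol from a count table of 32738 genes, and all 10 were found there. They are PHGDH, PSAT1 and PSPH of serine synthesis, SHMT1 and SHMT2, MTHFD1, MTHFD1L and MTHFD2, and ALDH1L1 and ALDH1L2. Both conditions used the same unmodified line in growth medium with serum. The 5 untreated libraries came from cells kept in that medium, and the 5 tunicamycin libraries from cells given 2 µg/ml of the drug for 17 h. The series states that the 5 replicates are experiments of separate days. Results therefore describe 1 cell line at 1 dose and 1 time.

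The pathway links carbohydrate to nucleotide and methyl group metabolism. PHGDH oxidizes a glycolytic intermediate, PSAT1 adds an amino group from glutamate, and PSPH removes the phosphate to give serine. Serine hydroxymethyltransferase then splits serine into glycine and a carbon unit bound to tetrahydrofolate (THF), in the cytosol by SHMT1 and in mitochondria by SHMT2. In mitochondria MTHFD2 oxidizes the bound carbon and MTHFD1L releases it as formate, which leaves the organelle. In the cytosol MTHFD1 binds formate to THF again for purine and thymidylate synthesis. ALDH1L1 in the cytosol and ALDH1L2 in mitochondria oxidize the formyl group to carbon dioxide and yield NADPH. Several of these genes are known targets of ATF4, the transcription factor of the integrated stress response.

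The QuantSeq method reads mRNAs from their 3′ end, so a count follows the number of transcripts rather than their length. Totals were 4242538 to 4888292 counts in untreated and 2234682 to 5029864 in tunicamycin libraries, the lowest being tunicamycin replicate 5. Liver markers were present, since 9 of 9 had at least 162 counts in every library, although APOA1, APOB, TTR, TF and FGB of these were lower with tunicamycin (log2 fold changes of -0.91, -0.78, -1.02, -0.38 and -0.76). Of 10 markers of fibroblasts, endothelial cells and leukocytes, 9 were found and 3 of them (COL1A2, PTPRC and CD3E) had 0 counts throughout, while none of the others exceeded 41 counts in a library. The 9 summed to 19 to 42 counts in untreated and 5 to 37 in tunicamycin libraries, with 5 to 41 of CD68 alone. CD68 was lower with tunicamycin (log2 fold change of -0.83, edgeR adjusted p = 0.0319) and CDH5 had 18 counts in tunicamycin replicate 4 and 0 elsewhere, and their part in the results was not tested. The values below are normalized counts, that is counts divided by the TMM-scaled library size and multiplied by the mean of those sizes, unless log2 is stated. A gene was called when edgeR's quasi-likelihood test gave an adjusted p under 0.05 over all 12733 genes tested.

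Promoter sequences are shown for 5 members, chosen because PSAT1, MTHFD2 and MTHFD1L rose with tunicamycin, MTHFD1 fell, and PHGDH was not called. They are the 250 bases before the RefSeq transcription start in GRCh38.p14, on the plus strand in each case, and such windows were matched for 7 of the 10 members (not for PSPH, SHMT2 and ALDH1L2). Capitals mark 3 motifs searched on both strands: the core of the composite element of C/EBP and ATF factors (TGATGNAA), the E-box bound by MYC and related factors (CACGTG) and the CCAAT box (CCAAT). These motifs do not overlap each other in the windows shown. The PSAT1 window is chr9:78296875-78297124, that of MTHFD2 chr2:74198365-74198614, that of MTHFD1L chr6:150866197-150866446, that of PHGDH chr1:119711684-119711933 and that of MTHFD1 chr14:64388103-64388352.
PSAT1: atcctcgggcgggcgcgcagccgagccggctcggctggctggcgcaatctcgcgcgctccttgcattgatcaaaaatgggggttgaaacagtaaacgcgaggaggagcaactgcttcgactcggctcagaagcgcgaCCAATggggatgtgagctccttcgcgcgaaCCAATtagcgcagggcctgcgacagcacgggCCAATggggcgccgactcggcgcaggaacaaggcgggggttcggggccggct
MTHFD2: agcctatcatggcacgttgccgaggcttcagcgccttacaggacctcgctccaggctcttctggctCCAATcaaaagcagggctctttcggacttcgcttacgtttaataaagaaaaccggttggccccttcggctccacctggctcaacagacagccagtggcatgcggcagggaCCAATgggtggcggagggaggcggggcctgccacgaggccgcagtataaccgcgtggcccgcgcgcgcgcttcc
MTHFD1L: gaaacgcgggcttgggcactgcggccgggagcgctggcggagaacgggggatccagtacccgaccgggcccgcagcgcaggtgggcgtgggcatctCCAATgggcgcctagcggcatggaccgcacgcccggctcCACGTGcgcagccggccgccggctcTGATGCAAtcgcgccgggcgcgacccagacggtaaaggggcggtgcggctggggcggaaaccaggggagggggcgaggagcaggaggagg
PHGDH: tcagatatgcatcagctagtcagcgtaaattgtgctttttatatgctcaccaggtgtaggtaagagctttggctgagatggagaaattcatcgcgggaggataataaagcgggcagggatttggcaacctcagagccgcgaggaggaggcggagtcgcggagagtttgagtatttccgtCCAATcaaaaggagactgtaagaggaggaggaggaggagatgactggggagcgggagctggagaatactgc
MTHFD1: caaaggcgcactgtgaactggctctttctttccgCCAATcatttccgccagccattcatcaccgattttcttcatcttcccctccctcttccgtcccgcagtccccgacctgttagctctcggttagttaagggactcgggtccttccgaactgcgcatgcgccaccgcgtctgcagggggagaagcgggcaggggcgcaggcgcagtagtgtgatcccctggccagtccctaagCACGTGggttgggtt

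PSAT1 held 3 CCAAT boxes, from 113 to 109, 83 to 79 and 52 to 48 bases before the start. At least 3 were found in 2.93% of the 35116 promoter windows of the same length, and at least 1 in 32%. MTHFD2 held 2 CCAAT boxes, and MTHFD1L, PHGDH and MTHFD1 held 1 each. The SHMT1 window, not printed here, also held 2, and SHMT1 was not called with tunicamycin. The composite element was found in the MTHFD1L window, from 90 to 83 bases before the start, where it reads TGATGCAA, and an E-box lay from 115 to 110. RefSeq gives 4 starts for MTHFD1L, and the windows of 2 of them contain that element. It was present in 3.14% of all windows and the E-box in 6.34%, the latter also in MTHFD1. Neither SHMT1 nor ALDH1L1 had the composite element or an E-box. A match describes letters in a window and not binding.

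With tunicamycin, the 4 mitochondrial folate enzymes among the members rose 1.9-fold to 3.19-fold, as did PSAT1 at 2.23-fold. MTHFD1 of the cytosol fell to 0.61 of its untreated level. PHGDH, PSPH and SHMT1 were not called. Thus 5 of the 9 members tested were higher and 1 was lower, against 17.6% of all tested genes called higher and 16.6% called lower. The median log2 fold change was 0.93 for the 9 members and -0.003 for all genes tested. The members were chosen with earlier results of these data known, so comparisons with all genes describe the list and are not a test of it. Untreated and tunicamycin libraries did not overlap for 6 of the 9 tested members, which are the 6 called ones, against 23.5% of all genes tested. Libraries of the same replicate number were taken as 1 experiment, a pairing that the likeness of libraries bore out only for replicates 1 and 4. Within experiments 5 members were higher and 1 lower in 5 of 5, against 20.8% and 20.4% of all genes tested. Outside the members, AMT and DLD of the mitochondrial glycine cleavage system went in opposite directions, and MTHFD2L, the paralog of MTHFD2, was not called. The rise thus describes the listed enzymes and not all mitochondrial enzymes that act on folate. From bulk RNA, a change of mRNA in each cell and a change in the mix of cell states in the culture cannot be told apart.

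Of the serine synthesis enzymes, PSAT1 was the only one called. PSAT1 (ENSG00000135069, chromosome 9, 78297125 to 78330093 of GRCh38, plus strand, 9 exons) had normalized counts of 406, 589, 760.3, 908 and 789.8 in untreated replicates 1 to 5. Under tunicamycin the values were 1265, 1476, 1633, 1790 and 1556. Every tunicamycin library was above every untreated one, although untreated libraries differed among themselves by more than their counting error, with a coefficient of variation of 28.3%. Group means were 691 ± 195 and 1544 ± 194 (SD, n = 5 each), and the log2 fold change was 1.16 (standard error 0.16, edgeR adjusted p = 1.37e-05). The largest increase within an experiment, 1.64 on the log2 scale, was that of experiment 1, where untreated cells had the least PSAT1.

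PHGDH, which commits the carbon to the pathway, showed no such separation. PHGDH (ENSG00000092621, chromosome 1, 119648411 to 119744218, plus strand, 12 exons) had normalized counts of 534, 451, 480.3, 469 and 406 in untreated replicates 1 to 5. With the drug the corresponding libraries had 472, 429, 395, 658 and 581. Tunicamycin replicates 4 and 5 were above all untreated libraries, and replicate 3 was below all of them. The log2 fold change was 0.11 with a 95% interval from -0.15 to 0.37 (edgeR adjusted p = 0.545). Within experiments the log2 ratio was -0.18, -0.07, -0.28, 0.49 and 0.52 in experiments 1 to 5, so that its direction differed between experiments.

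PSPH, the phosphatase of the last step, was the steadiest of the serine enzymes. PSPH (ENSG00000146733, chromosome 7, 56011051 to 56051604, minus strand, 8 exons) ranged from 479.7 to 568 normalized counts in untreated and from 503 to 596 in tunicamycin libraries. The means were 532 ± 33.6 and 538 ± 34.8 (SD, n = 5 each). The 95% interval of its log2 fold change ran from -0.16 to 0.19 (edgeR adjusted p = 0.909), and 2 of 5 experiments showed an increase. Whether PSAT1 changed by more than PHGDH or PSPH was not tested. GENCODE names 14 pseudogenes after PSAT1, PSPH, SHMT1, MTHFD1 and MTHFD2, the most (7) after MTHFD2. None has a row in the table, and how reads shared with them were counted is not given in the sources used here.

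SHMT2, the mitochondrial serine hydroxymethyltransferase, rose 1.9-fold. SHMT2 (ENSG00000182199, chromosome 12, 57229573 to 57234935, plus strand, 12 exons) had normalized counts of 626, 489.5, 519.7, 544 and 572 in untreated replicates 1 to 5. The 5 treated libraries measured 1030, 1022, 1054, 1029 and 1092. The lowest tunicamycin library stood well above the highest untreated one. The mean rose from 550.2 ± 52.1 to 1045 ± 28.5 (SD, n = 5 each), with a log2 fold change of 0.93 (standard error 0.08, edgeR adjusted p = 8.35e-08).

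SHMT1, its cytosolic counterpart, had few and uneven counts. SHMT1 (ENSG00000176974, chromosome 17, 18327860 to 18363563, minus strand, 12 exons) had normalized counts of 44.8, 75.8, 78.7, 115 and 90.5 in untreated replicates 1 to 5. The tunicamycin libraries, in the same order, had 41.4, 111, 69.9, 96.2 and 88.8. The library with the least SHMT1 was replicate 1 in both conditions. The log2 fold change was -0.01 with a 95% interval from -0.51 to 0.50 (edgeR adjusted p = 0.982). Libraries of a condition varied by 31.3% and 33% (coefficient of variation), more than the counting error of 8.84% to 15.1% that goes with 44 to 128 counts per library.

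MTHFD2, the mitochondrial dehydrogenase and cyclohydrolase known for its abundance in embryonic and tumor cells, changed by 2.43-fold. MTHFD2 (ENSG00000065911, chromosome 2, 74186172 to 74217565, plus strand, 8 exons) had normalized counts of 375, 501, 621, 596 and 594 in untreated replicates 1 to 5. Under tunicamycin the values were 1269, 1305, 1348, 1301 and 1308. Tunicamycin libraries were nearly alike, with a coefficient of variation of 2.14%, no larger than the counting error of 2.58% to 3.93% in single libraries, while untreated libraries varied by 18.9%. The log2 fold change was 1.28 (standard error 0.11, edgeR adjusted p = 6e-08).

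MTHFD1L, which releases formate in mitochondria, rose by 1.95-fold. MTHFD1L (ENSG00000120254, chromosome 6, 150865679 to 151101887, plus strand, 28 exons) had normalized counts of 232, 209, 207, 208 and 245 in untreated replicates 1 to 5. With the drug the corresponding libraries had 423, 411, 473, 404 and 434. No tunicamycin library came near the untreated range. The log2 fold change was 0.96 (standard error 0.09, edgeR adjusted p = 1.53e-07).

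MTHFD1, the cytosolic enzyme with 3 activities that takes formate up again, was the only member called lower. MTHFD1 (ENSG00000100714, chromosome 14, 64388031 to 64463457, plus strand, 28 exons) had normalized counts of 396, 422, 398, 360.2 and 387 in untreated replicates 1 to 5. The 5 treated libraries measured 275, 212, 253, 225 and 226. Every tunicamycin library was below every untreated one. The mean fell from 393 ± 22.2 to 238 ± 25.4 (SD, n = 5 each), with a log2 fold change of -0.71 (standard error 0.10, edgeR adjusted p = 1.1e-05).

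ALDH1L2, the mitochondrial formyl-THF dehydrogenase, had the highest fold change of the members from the lowest level of those tested. ALDH1L2 (ENSG00000136010, chromosome 12, 105019784 to 105107643, minus strand, 23 exons) had normalized counts of 17.2, 19.6, 12.2, 13.4 and 13.2 in untreated replicates 1 to 5. The tunicamycin libraries, in the same order, had 47.3, 67.5, 47.2, 34.3 and 44.4. The groups were apart, though the gene had only 13 to 68 counts per library. The log2 fold change was 1.67 (standard error 0.23, edgeR adjusted p = 1.48e-05), which exceeded that of 98.2% of all genes tested.

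ALDH1L1, the cytosolic formyl-THF dehydrogenase that is abundant in normal liver, was hardly found. ALDH1L1 (ENSG00000144908, chromosome 3, 126103562 to 126197994, minus strand, 23 exons) had 1 count in untreated replicate 2, 1 count in tunicamycin replicate 3 and 0 counts in the other libraries, where 0 allows up to 3 counts. It did not pass the filter on low counts, so that no response could be measured with so few counts. No ratio of ALDH1L2 to ALDH1L1 was therefore formed.

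**Figure D1:**
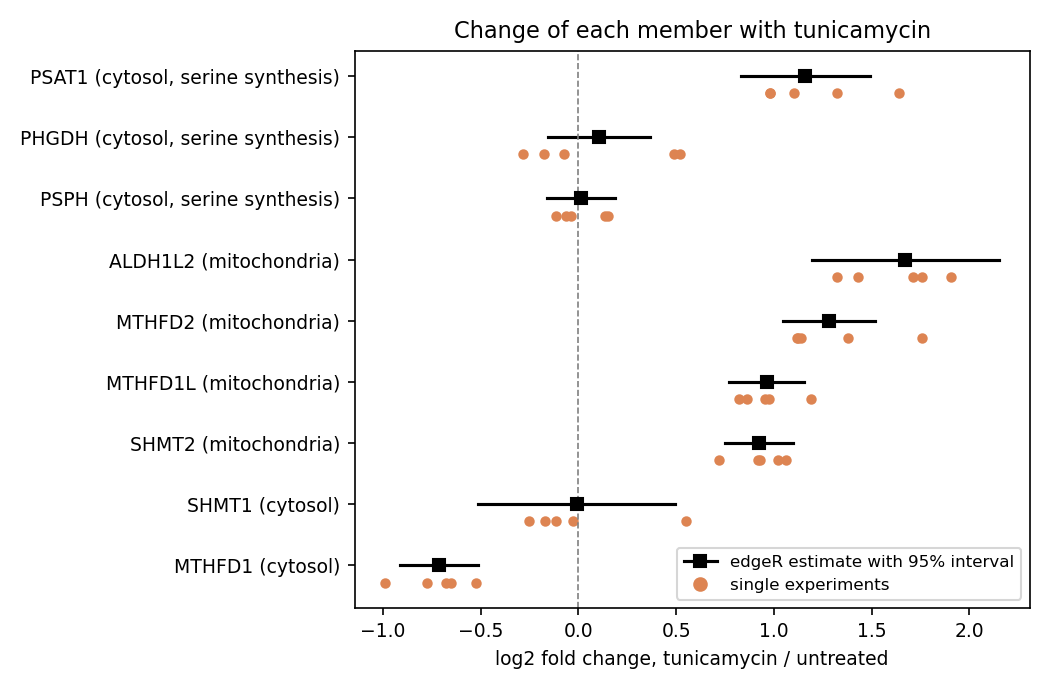
Log2 fold change of tunicamycin over untreated (horizontal axis) for the 9 tested members, as edgeR's estimate with its 95% interval (black squares and bars) and as the log2 ratio within each of the 5 experiments, paired by replicate number (orange). The mitochondrial enzymes and PSAT1 lie above 0 in every experiment, MTHFD1 lies below 0, and the intervals of PHGDH, PSPH and SHMT1 include 0.

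In the GENCODE annotation of GRCh38, SHMT1, SHMT2, MTHFD1, MTHFD2, ALDH1L1 and ALDH1L2 share exon bases with genes of the other strand, and whether counting used the strand is not given in the sources used here. Within the last 500 bases of the member's main transcript, where 3′ reads fall, the overlapping gene was SMCR8 for SHMT1, NDUFA4L2 for SHMT2, SLC4A5 for MTHFD2 and ALDH1L1-AS1 for ALDH1L1. These neighbors had 0 to 2 counts per library, and SLC4A5 and ALDH1L1-AS1 had 0 throughout. How reads shared by both genes were counted is not given, so low neighbor counts do not show that no member reads were lost. PHGDH, PSAT1, PSPH and MTHFD1L had no overlap with exons of other genes.

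To compare the compartments within a library, the log2 ratio of the mitochondrial to the cytosolic enzyme was formed, which does not depend on how libraries are scaled. For MTHFD2 to MTHFD1 it was -0.08, 0.25, 0.64, 0.72 and 0.62 in untreated replicates 1 to 5. With tunicamycin it was 2.203, 2.617, 2.41, 2.527 and 2.53 in the same order. The groups were far apart, and the mean ratio increased by 2.03 on the log2 scale, or 4.07-fold (two-sided exact permutation test, p = 0.00794, which is the lowest value possible with 5 libraries per group, p = 0.0119 adjusted over 3 ratios). Every tunicamycin library was above every untreated one for MTHFD2 and below for MTHFD1. That separation alone fixes this p at its lowest value, so the test adds nothing to the calls of the single genes.

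For MTHFD1L to MTHFD1 the log2 ratio of counts changed sign. Genes may differ in how well their 3′ ends are captured, so the sign does not tell which transcript was more abundant. In untreated replicates 1 to 5 it was -0.77, -1.01, -0.94, -0.79 and -0.66 on the log2 scale, with fewer MTHFD1L than MTHFD1 counts in each library. In tunicamycin replicates 1 to 5 it became 0.62, 0.95, 0.90, 0.84 and 0.94, with more MTHFD1L counts in each. The mean increased by 1.68, or 3.21-fold (two-sided exact permutation test, p = 0.00794, adjusted p = 0.0119). Here too the p was fixed by the separation of both genes. The ratios of MTHFD2 and MTHFD1L share MTHFD1 as denominator and are not independent of each other.

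For SHMT2 to SHMT1 the groups overlapped. The log2 ratio was 3.79, 2.68, 2.71, 2.24 and 2.65 in untreated replicates 1 to 5, and 4.62, 3.20, 3.90, 3.41 and 3.61 in those with tunicamycin. It was higher with tunicamycin in 5 of 5 experiments, by 0.51 to 1.19, and the mean increased by 0.93 (two-sided exact permutation test, p = 0.0317, adjusted p = 0.0317). Untreated replicate 1, which had the least SHMT1 of its group, lay above 3 of the 5 tunicamycin libraries. This call was lost after leaving out any of untreated replicates 2 to 5 or tunicamycin replicates 1, 3 or 5 (adjusted p = 0.0556 to 0.0714), after thinning to the smallest library (adjusted p = 0.0556) and with replicates as pairs (adjusted p = 0.0625).

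**Figure D2:**
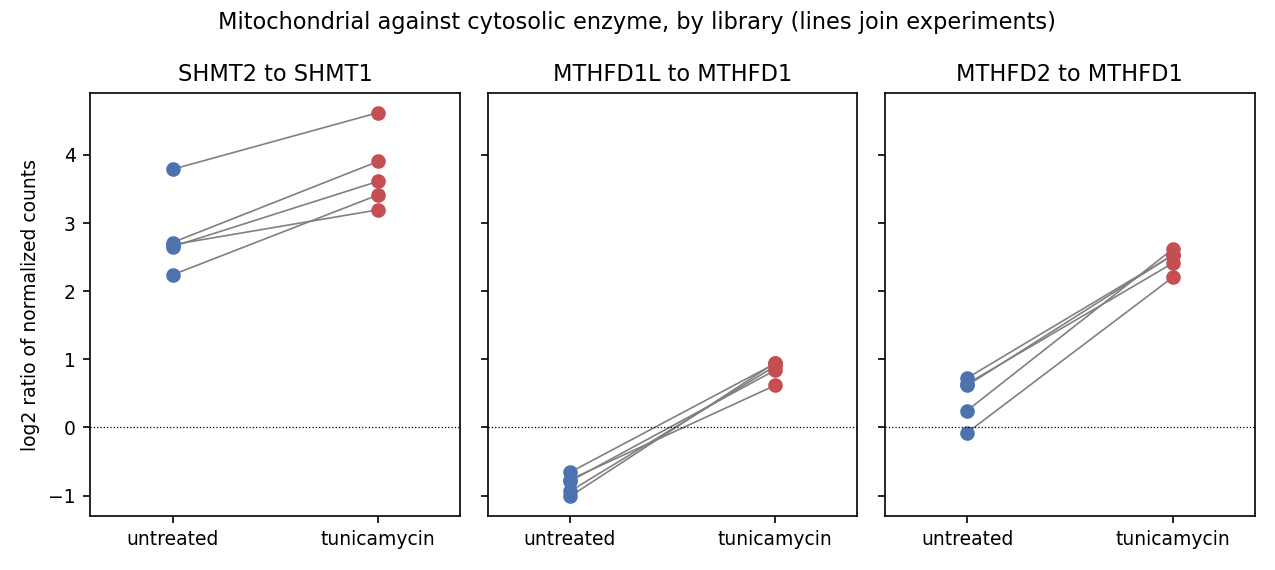
Log2 ratio of normalized counts of the mitochondrial to the cytosolic enzyme (common vertical axis) in each untreated (blue) and tunicamycin (red) library, with lines joining libraries of the same replicate number. All 15 lines rise, and only for SHMT2 to SHMT1 do the groups overlap.

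Summed over the folate enzymes of the list, mitochondrial members took 73.6% ± 1.5 of the counts in untreated cells and 89.8% ± 0.217 with tunicamycin (SD, n = 5 each). The lowest tunicamycin library had 89.6% and the highest untreated library 74.9%. The sum of the mitochondrial members went from 1323 ± 85.2 to 2829 ± 68.8 normalized counts and that of the cytosolic ones from 474 ± 20.6 to 320 ± 3.87. In the tunicamycin libraries SHMT1 (SD 26.9) and MTHFD1 (SD 25.4) varied in opposite directions. The small SD of the cytosolic sum is therefore not a measure of counting precision. These are shares of 3′ counts, and genes may differ in how well their 3′ ends are captured. No test was made on these sums.

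Other genes of serine, folate, purine and methionine metabolism, 43 in a hand-written list that also holds 3 transcription factors, did not share a direction. Of 40 tested, 7 were higher and 9 lower, with a median log2 fold change of -0.05. Against the background of 17.6% and 16.6%, these shares lie close to those of all genes.

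TYMS, thymidylate synthase, fell, with 354 ± 25.1 normalized counts in untreated and 268 ± 43 in tunicamycin libraries (SD, n = 5 each, edgeR adjusted p = 0.00575). An exon of ENOSF1 on the opposite strand overlaps the last 500 bases of TYMS.

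Of 6 enzymes of purine ring synthesis, which takes up formyl groups from folate, 3 were called higher and 0 lower, against 17.6% and 16.6% of all genes tested, and no test was made on the group. PAICS had a log2 fold change of 0.51, GART, which uses formyl-THF directly, 0.41, and ADSL 0.38, each higher in 5 of 5 experiments (edgeR adjusted p = 0.00244, 0.0188 and 0.00687). Their untreated and tunicamycin libraries overlapped. ATIC, the second enzyme that uses formyl-THF, was not called (0.14, edgeR adjusted p = 0.19), nor were PFAS (-0.27, edgeR adjusted p = 0.111) and PPAT (-0.06, edgeR adjusted p = 0.785). Within experiments ATIC was higher in 5 of 5, whereas PFAS and PPAT were lower in 5 of 5, PPAT with log2 ratios of only -0.17 to -0.03. Among all genes tested, 20.8% were higher and 20.4% lower in every experiment.

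In the glycine cleavage system, the mitochondrial complex that also feeds carbon units to THF, AMT fell and DLD rose. AMT, the aminomethyltransferase subunit, had 205 ± 33.4 normalized counts in untreated and 117 ± 32.3 in tunicamycin libraries (SD, n = 5 each) and a log2 fold change of -0.84 (edgeR adjusted p = 0.00046). DLD, the lipoamide dehydrogenase that other mitochondrial complexes share, had a log2 fold change of 0.47 (edgeR adjusted p = 0.0016). GLDC (0.63) and GCSH (0.83) were not called, with edgeR adjusted p of 0.119 and 0.0822, but with the replicate block GLDC was called (0.66, edgeR adjusted p = 0.00508). An exon of another gene on the same strand overlaps the last 500 bases of AMT.

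In folate interconversion 2 of 6 genes tested were called lower, and in the methionine cycle 2 of 9 were called lower and 2 higher. Of all genes tested 16.6% were called lower and 17.6% higher. The methionine cycle lies near these shares, and no test was made on either group. FTCD, which passes carbon from histidine breakdown to folate, fell, with 313 ± 59.3 normalized counts in untreated and 182 ± 20.9 in tunicamycin libraries (SD, n = 5 each), and SARDH, sarcosine dehydrogenase, had a log2 fold change of -0.36 (edgeR adjusted p = 0.000129 and 0.0308). The SARDH call was lost in 6 of the 10 fits that left out a library (adjusted p = 0.0528 to 0.078), after thinning (0.126) and without the filter on low counts (0.0577). MAT1A, the methionine adenosyltransferase of adult liver, fell from 496 ± 33.5 to 319 ± 18.5 (SD, n = 5 each, edgeR adjusted p = 1.34e-05), with no overlap between conditions. In the same cycle AHCY, which hydrolyses S-adenosylhomocysteine, and MAT2B, a regulatory subunit, rose with log2 fold changes of 0.61 and 0.69 (edgeR adjusted p = 0.00514 and 0.00316). BHMT, which remethylates homocysteine with betaine, was named after its values were seen, since it fell below the minimum level for naming. It had 0 to 2.02 normalized counts in tunicamycin and 6.89 to 24.1 in untreated libraries (edgeR adjusted p = 0.000109).

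Among transporters, SFXN3, a homolog of the mitochondrial serine carrier SFXN1, fell, with 84.9 ± 12.4 normalized counts in untreated and 50.5 ± 11.7 in tunicamycin libraries (SD, n = 5 each, edgeR adjusted p = 0.00231). SFXN1 itself had a log2 fold change of 0.35 (edgeR adjusted p = 0.0678, and 0.0326 with the replicate block). SLC46A1, a proton-coupled folate transporter, had one of -0.37 (edgeR adjusted p = 0.0297), and the call was lost after leaving out untreated replicate 4 or 5 or tunicamycin replicate 2 or 3 (adjusted p = 0.0529 to 0.0942). MTFMT, which formylates the mitochondrial initiator tRNA, had one of 0.49 (edgeR adjusted p = 0.0469), a call lost in 7 of the 10 fits that left out a library (adjusted p up to 0.121), after thinning to the smallest library (0.142) and with library size as scaling (0.0861). MTHFD2L, the paralog of MTHFD2, was not called (0.25, edgeR adjusted p = 0.311). Of 6 tested genes that use or break down serine, 1 was called lower and 0 higher, against 16.6% and 17.6% of all genes tested. It was SPTLC3, a subunit of serine palmitoyltransferase, which fell from 238 ± 20.9 to 92.6 ± 26.7 normalized counts (edgeR adjusted p = 1.3e-06). Of the same enzyme, SPTLC1 and SPTLC2 were not called (-0.04 and -0.04, edgeR adjusted p = 0.913 and 0.822).

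Of 3 transcription factors known to act on this pathway, MYC rose and the others were not called. MYC measured 13.8, 21.4, 38.5, 46.6 and 26.4 normalized counts without the drug and 55.7, 118, 104, 161 and 199.8 with it, in the order of replicates. The groups did not overlap, and the log2 fold change was 2.07 (standard error 0.31, edgeR adjusted p = 3.89e-05). ATF4 mRNA, at 3597 ± 413 and 3510 ± 449 normalized counts (SD, n = 5 each), had a log2 fold change of -0.04 with a 95% interval from -0.25 to 0.18. ATF4 is known to be controlled largely at translation, and protein was not measured in these libraries. In the study's immunoblots of HepG2 cells, tunicamycin for 17 h at a higher dose raised ATF4 protein. NFE2L2 had a log2 fold change of -0.09 (edgeR adjusted p = 0.569).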

How the data were processed

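RNA-seq of HepG2 cells comprised 5 untreated and 5 tunicamycin-treated libraries (QuantSeq 3′ mRNA-Seq, FWD). The authors ran the nf-core RNA-Seq pipeline with hg19 and Ensembl transcript definitions at default settings and deposited raw counts per gene. The aligner and the strand setting are not given in the sources used here. All sample columns were used, matched to libraries by name.

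Genes were filtered with filterByExpr (minimum count 2, minimum total 10), as in the study's methods, scaled by TMM and tested with edgeR 4.0.16 (R 4.3.3), quasi-likelihood, condition as the only term, Benjamini-Hochberg adjustment over all tested genes. The study used DESeq2, which was an alternative here (1.42.0). Standard errors are the log2 fold change over the square root of F. Log2 ratios used a pseudocount of 0.5 and exact permutation tests over libraries. Totals of 2234682 to 5029864 counts limit genes with few counts. The fit was tested on simulated data.

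The members and the pathway list were chosen with earlier results of these data known. Named pathway genes are, per role, up to 3 with the lowest p among called genes with a mean of at least 20 normalized counts, and all transcription factors. Others with values (BHMT, ATIC, PFAS, PPAT, GLDC, GCSH, SFXN1, MTHFD2L, SPTLC1, SPTLC2) were added after their values were seen. Replicate numbers were taken to pair libraries, since the series gives the replicates as experiments of separate days. As a check, deviations from the condition's mean correlated within pairs, over 10736 genes, with 0.317, 0.017, 0.039, 0.122 and 0.086, and untreated replicates 1 and 4 were most like the tunicamycin library of their own number while 2, 3 and 5 were not. Replicates of a condition differed by more than counting noise. Alternatives were DESeq2, its size factors, library size only, no filter, the default filter, the replicate block, thinning to the smallest library and leaving out each library. Gene positions come from GRCh38 (GENCODE) rather than the hg19 of the counts, matched by Ensembl identifier, and promoters from RefSeq. The planned ratio of ALDH1L2 to ALDH1L1 was not formed because ALDH1L1 had 2 counts in all. Some genes of the pathway list are not reported here, and its counts are given without them.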

Additional observations from a re-analysis of the deposited data

Results flagged for a closer look

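In 3 of 54 groups of 5 values (normalized counts of the tested members and named pathway genes), 1 library stood apart from its 4 fellows, where chance gives about 2.7. None of the 3 was a member. DLD had 161 normalized counts in untreated replicate 4, against 212 to 225 in the others. TYMS had 398 in the same library, against 335 to 349.5. GART had 199.7 in untreated replicate 1, against 287 to 319.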

How the results depend on the processing

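The numbers of members called, 5 higher and 1 lower, were the same under 17 other settings, 10 of which left out a library, and in 2 fits added after seeing the data (DESeq2 with the replicate block, and both libraries of experiment 5 removed, since tunicamycin replicate 5 had the lowest total). The members' log2 fold changes gave 153 of 153 planned values on the same side of the threshold, with sign changes in 11 values of members that were not called. Over all settings PSAT1 ranged from 1.02 to 1.29, SHMT2 from 0.84 to 0.99, MTHFD1L from 0.88 to 1.00, MTHFD2 from 1.18 to 1.34, ALDH1L2 from 1.52 to 1.84 and MTHFD1 from -0.79 to -0.67. Scaling by library size alone took the median of all genes to -0.08 and the share of higher genes among calls from 51.4% to 40.8%, with 0.84 as the members' median. In edgeR the replicate block changed no call of a member and ended none of the other pathway genes' calls, but SFXN1, GLDC and SRR (0.34, 0.66 and -1.315) gained one. Of the named pathway genes, 285 of 306 planned values kept their side, and SARDH, MTFMT and SLC46A1 lost their calls in 21. SARDH was also lost in DESeq2 with the replicate block (adjusted p = 0.106), and GART, MTFMT and SLC46A1 with experiment 5 removed (adjusted p = 0.0655, 0.0794 and 0.0841). The log2 ratio of SHMT2 to SHMT1 lost its call after thinning (0.93) and ranged from 0.72 to 1.18 with each library left out. With replicates as pairs the changes of the 3 ratios were 0.93, 1.68 and 2.03, each with the smallest p that 5 pairs allow, 0.0625, which cannot pass 0.05. Few counts limit ALDH1L1, and the spread between libraries limits SHMT1.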
